A study of Homo sapiens with 6 samples.

Results

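The AP-1 and immediate early transcription factors described here are 10 genes, FOS, FOSB, FOSL1, FOSL2, JUN, JUNB, JUND, EGR1, IER2 and ATF3, taken by symbol from a table of 57773 genes. All 10 were matched to an Ensembl ID and all 10 passed the filter on low counts, which left 15818 genes to test. The cells were U251, an established human glioblastoma line. One line carried a lentiviral construct for PD-L1 (encoded by CD274, a cell surface protein that binds PD-1 on T cells), and the other carried the lentiviral vector alone. Each stable line was grown in 3 dishes of DMEM with 10% FBS, at passage 5 to 10, and its total RNA was taken 12 h after passage. The sources used here do not say which promoter drove the construct, nor whether a line was a pool or a single clone. All dishes of a group came from the same transduced line, so the p-values below reflect how dishes vary, not how transductions vary. The comparison asks which of these regulators differ in transcript level between PD-L1 and Vector cells.

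AP-1 is a dimer of basic leucine zipper proteins, either a FOS protein joined to a JUN protein or a pair of JUN proteins, that binds a short palindromic element in promoters and enhancers. FOS, FOSB, JUN, JUNB, EGR1 and IER2 are classical immediate early genes, whose transcription starts soon after serum or growth factors reach the cell and needs no new protein. FOSL1 and FOSL2 encode FRA-1 and FRA-2, which lack the transactivation domain of FOS and accumulate under lasting ERK signalling. ATF3 is a related leucine zipper protein that is induced by many stresses. Fewer expressing cells and less RNA per cell cannot be told apart in such bulk RNA.

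The promoters of these genes were searched for short motifs. RefSeq promoters (GRCh38.p14, from 250 bases before to 50 after a gene's start) were matched for 9 of the 10 genes. FOSL1 had no entry. The 250 upstream bases of FOSL2 and IER2, which passed the test below, and of FOS and EGR1, the prototypes of serum response, are printed 5′ to 3′, and capitals mark every match to 6 motifs. These lie at chr2:28392608-28392857 (FOSL2), chr19:13150161-13150410 (IER2), chr14:75278578-75278827 (FOS) and chr5:138465229-138465478 (EGR1), all on the plus strand.
FOSL2: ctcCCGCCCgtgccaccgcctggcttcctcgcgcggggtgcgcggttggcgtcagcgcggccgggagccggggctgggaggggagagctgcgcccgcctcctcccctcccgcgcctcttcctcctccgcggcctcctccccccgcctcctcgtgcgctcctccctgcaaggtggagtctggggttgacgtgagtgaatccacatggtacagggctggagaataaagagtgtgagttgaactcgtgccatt
IER2: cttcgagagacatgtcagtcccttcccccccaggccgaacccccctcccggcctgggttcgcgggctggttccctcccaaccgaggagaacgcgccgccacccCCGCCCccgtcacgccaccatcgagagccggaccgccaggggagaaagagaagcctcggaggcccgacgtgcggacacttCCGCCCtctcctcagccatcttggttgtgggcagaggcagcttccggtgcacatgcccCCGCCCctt
FOS: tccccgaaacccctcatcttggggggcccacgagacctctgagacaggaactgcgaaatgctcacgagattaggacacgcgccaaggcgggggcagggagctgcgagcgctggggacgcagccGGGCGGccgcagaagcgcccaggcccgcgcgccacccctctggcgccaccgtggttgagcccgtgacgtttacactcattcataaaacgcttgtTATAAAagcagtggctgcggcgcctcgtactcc
EGR1: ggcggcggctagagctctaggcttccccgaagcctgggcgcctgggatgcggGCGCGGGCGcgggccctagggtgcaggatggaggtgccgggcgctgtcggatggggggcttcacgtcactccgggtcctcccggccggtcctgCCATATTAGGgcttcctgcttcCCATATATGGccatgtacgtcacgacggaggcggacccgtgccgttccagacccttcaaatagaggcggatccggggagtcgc

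The motifs were searched on both strands of the full windows. The CArG box, the element bound by serum response factor, matched in 1 of the 9 genes, EGR1, where CCATATTAGG began at -105 and CCATATATGG at -83 relative to the start. It matched in 1.29% of all 35116 promoters. The TATA box, searched as TATAAA, matched in 4 of 9 genes and in 11.5% of all promoters. Its first base lay at -33 in FOS, -30 in FOSB and -31 in JUNB, and at -230 from the second of 2 listed starts in ATF3. The GC box, searched as GGGCGG, matched in 7 of 9 genes and in 45% of all promoters. The AP-1 element, searched as TGANTCA, matched in FOSL2 alone, with TGACTCA beginning at base 5 after the start, and in 7.71% of all promoters. The cyclic AMP response element, searched as TGACGTCA, matched in JUND alone, beginning at -200, and in 1.85% of all promoters. The EGR1 element, searched as GCGNGGGCG, matched in EGR1 alone and in 9.43% of all promoters. In the 100 bases before the start alone, the GC box matched in 4 of 9 genes (31.3% of all promoters), the TATA box in 3 (4.99%) and the CArG box in 1 (0.578%). In that shorter window the AP-1 element (2.75%), the cyclic AMP response element (1.17%) and the EGR1 element (4.88%) matched in 0 of 9 genes. No 2 matches overlapped in these 9 genes, although the EGR1 element and the GC box can share letters. These matches describe the letters of the windows and do not show binding. An element outside the windows, or one that departs from the letters searched, would be missed, so a missing match does not show that a gene lacks the element.

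Depth and dish quality set the ground for the results. Totals per dish were 15678989 to 19704409 counts in PD-L1 dishes and 18797948 to 22270509 counts in Vector dishes, so that 3 counts correspond to 0.138 to 0.185 CPM (counts scaled to library size in the usual way, after TMM normalization). CD274 was at 1300 ± 61.4 CPM in PD-L1 dishes and 2.41 ± 0.97 CPM in Vector dishes (SD, n = 3 each). PD-L1 dish 3 stood apart from the other PD-L1 dishes. Its counts differed from theirs by a chi-square of 14.6 and 13.6 per degree of freedom, against 2.84 between PD-L1 dishes 1 and 2, and 4.88 to 9.15 among Vector dishes. The slope of the level relative to the Vector mean, per 10 percentage points of GC content, was -0.15, -0.11 and 0.0010 on the log2 scale in PD-L1 dishes 1 to 3. In Vector dishes 1 to 3 it was 0.06, -0.04 and -0.02. The 10 genes had transcript GC contents of 46.7 to 69.7%, and 9 of them lay above the median of 48.2%, so the fold changes below are also given with an offset for GC content and length where this matters.

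FOSL1 and FOSL2 were lower in PD-L1 dishes, and IER2 was lower by a smaller margin, while 7 of the 10 genes did not pass the test. FOSL1 fell 2.06-fold, FOSL2 1.75-fold and IER2 1.25-fold. For these 3 genes the groups did not overlap, as held for 27.6% of all tested genes (15.5% with PD-L1 below Vector). The count was 3 lower and 0 higher at a false discovery rate (FDR) of 0.05 in edgeR's quasi-likelihood test. Across all tested genes 1384 passed (8.75%), 1139 of them lower (7.20%) and 245 higher (1.55%). That split was 932 lower and 401 higher with scaling by library size alone, and 1288 lower and 778 higher with the GC and length offset. The median log2 fold change of the 10 genes was -0.23, against 0.02 over all tested genes. With the GC and length offset these medians were -0.13 and 0.03. Without PD-L1 dish 3, 4 of the 10 genes were lower (13.8% of all genes were), and without PD-L1 dish 2, FOSL2 alone was (4.18% of all genes). With the GC and length offset FOSL1 and FOSL2 were lower (8.14% of all genes).

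**Figure D1:**
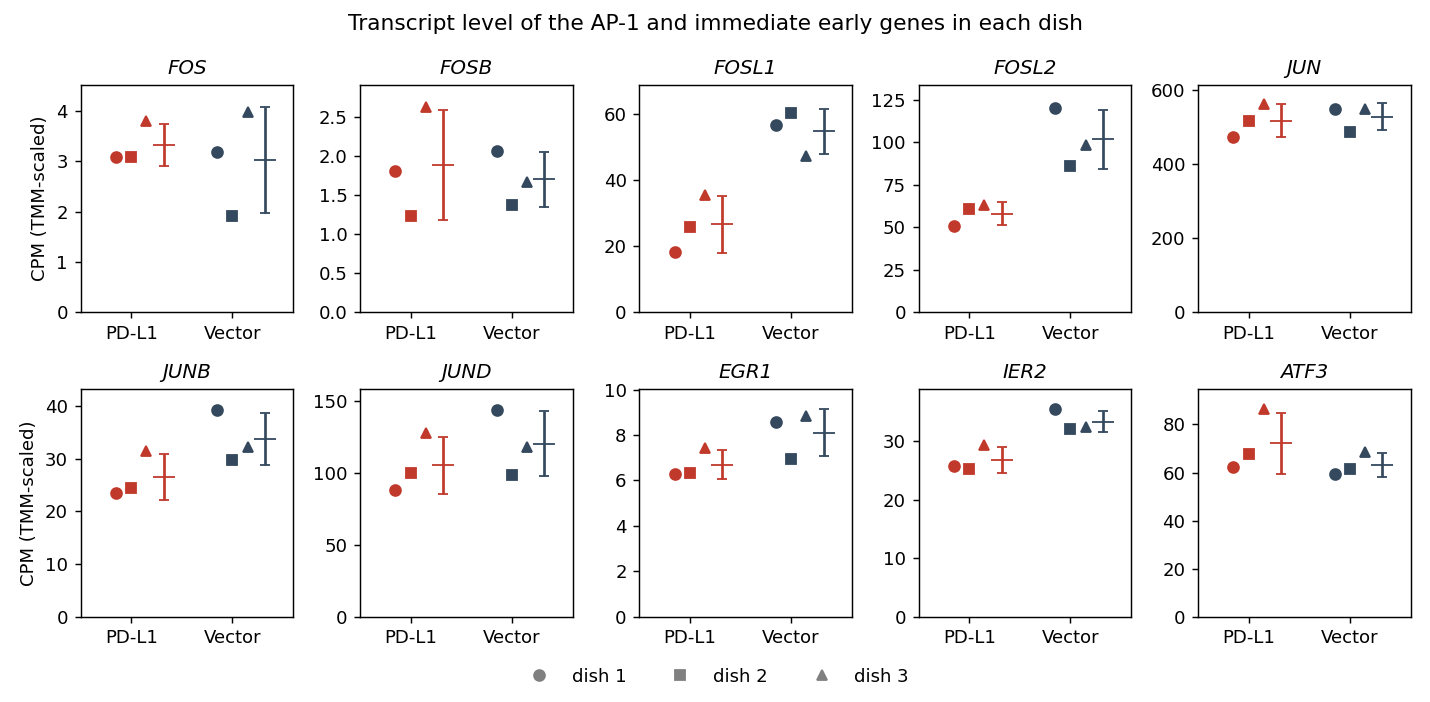
Transcript level in CPM (linear axes from 0, each panel with its own scale) of the 10 genes in the 3 PD-L1 dishes and the 3 Vector dishes. Points are dishes, and the bar beside them is the mean with its SD. FOSL1, FOSL2 and IER2 show no overlap between groups, and PD-L1 dish 3 is the highest PD-L1 dish in all 10 panels.

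FOSL1 (ENSG00000175592, chromosome 11) had 377, 420 and 665 counts in PD-L1 dishes 1 to 3, against 1233, 1234 and 878 counts in Vector dishes 1 to 3. This amounts to 18.4, 25.9 and 35.6 CPM in PD-L1 dishes, against 56.7, 60.3 and 47.3 CPM in Vector dishes. The groups did not overlap, but PD-L1 dishes spread widely, with dish 3 highest and dish 1 lowest. The log2 fold change was -1.04 ± 0.21 (SE, adjusted p = 0.0166 in edgeR's quasi-likelihood test). By exact permutation of the dishes (two-sided), p was 0.1, and 3 dishes against 3 can give no smaller value. The change was -0.97 (adjusted p = 0.0131) with the GC and length offset and -1.32 (adjusted p = 7.16e-04) without PD-L1 dish 3. The call ended without PD-L1 dish 2, at -1.02 (adjusted p = 0.134).

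FOSL2 (ENSG00000075426, chromosome 2) was the member with the smallest adjusted p. It had 1037, 986 and 1176 counts in PD-L1 dishes, against 2616, 1766 and 1829 counts in Vector dishes. In CPM it was at 50.6, 60.8 and 63.0 in PD-L1 dishes and at 120.4, 86.3 and 98.5 in Vector dishes. Every PD-L1 dish lay below every Vector dish, and the wider spread was within the Vector group. FOSL2 differed by -0.81 ± 0.12 on the log2 scale (SE, adjusted p = 9.40e-04 in edgeR, exact permutation p = 0.1). It passed in all 20 alternative settings, at -0.92 to -0.67. FOSL2-AS1, an antisense gene within the FOSL2 locus whose exons do not overlap those of FOSL2, had 0 to 1 counts in PD-L1 dishes and 0 to 5 counts in Vector dishes.

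The other FOS genes were scarce and did not pass. FOS (ENSG00000170345) had 63, 50 and 71 counts in PD-L1 dishes and 69, 39 and 74 counts in Vector dishes. These are 3.07, 3.08 and 3.80 CPM in PD-L1 dishes, against 3.18, 1.91 and 3.98 CPM in Vector dishes. The groups overlapped, since the PD-L1 values lay within the range of the Vector values. The log2 fold change was 0.14 ± 0.24 (SE, adjusted p = 0.761 in edgeR), with an interval of 2 SE from -0.33 to 0.62. FOSB (ENSG00000125740), with 20 to 49 counts per dish, was at 1.81, 1.23 and 2.62 CPM in PD-L1 dishes and 2.07, 1.37 and 1.67 CPM in Vector dishes. Its log2 fold change was 0.16 ± 0.28 (SE, adjusted p = 0.781 in edgeR), and its PD-L1 dishes enclosed the Vector range. At these depths a change of FOSB between -0.40 and 0.71 lies within 2 SE. FOSB also overlaps the DNA repair gene ERCC1 on the opposite strand. The exons of FOSB do not overlap those of ERCC1, but introns were not examined, and the library kit does not mark strand.

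Per length, the FOS genes were unequal in both groups. Levels between genes were compared as CPM per kilobase of union exon length. FOSL1 was at 14.1 ± 4.57 CPM per kilobase in PD-L1 dishes and 29.03 ± 3.58 in Vector dishes, and FOSL2 at 8.12 ± 0.92 in PD-L1 dishes and 14.2 ± 2.41 in Vector dishes (SD, n = 3 each). FOS followed at 1.02 ± 0.13 CPM per kilobase in PD-L1 dishes and 0.93 ± 0.32 in Vector dishes, and FOSB at 0.34 ± 0.13 in PD-L1 dishes and 0.31 ± 0.06 in Vector dishes. The sum over the 4 FOS genes was 18.1, 23.4 and 29.3 CPM per kilobase in PD-L1 dishes, against 48.2, 44.9 and 40.3 in Vector dishes, with no overlap. FOSL1 made up 53.9, 58.7 and 64.4% of that sum in PD-L1 dishes and 62.3, 71.3 and 62.1% in Vector dishes, and these shares overlapped. FOS made up 5.25, 4.07 and 4.01% in PD-L1 dishes, against 2.03, 1.31 and 3.05% in Vector dishes, without overlap. Each share moves with the other genes of the sum, and no test was made of these sums and shares.

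JUN, the most abundant member, differed between the lines by less than the spread between dishes. JUN (ENSG00000177606) was at 473, 517 and 561 CPM in PD-L1 dishes, against 548, 487 and 548 CPM in Vector dishes, above 98.6% of tested genes by mean CPM over all dishes. The groups overlapped, with PD-L1 dish 1 lowest and PD-L1 dish 3 highest of all dishes. The log2 fold change was -0.03 ± 0.09 (SE, adjusted p = 0.873 in edgeR), with an interval of 2 SE from -0.20 to 0.14. Its sign depended on the setting, being positive with upper-quartile scaling, with library-size scaling, with the GC and length offset and without PD-L1 dish 1, each time without passing.

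JUNB and JUND, the other partners of FOS proteins, had negative fold changes that did not pass. JUNB (ENSG00000171223) was at 23.5, 24.3 and 31.5 CPM in PD-L1 dishes, against 39.2, 29.8 and 32.2 CPM in Vector dishes. PD-L1 dish 3 lay inside the Vector range and the other PD-L1 dishes below it. The log2 fold change of JUNB was -0.35 ± 0.13 (SE, adjusted p = 0.103 in edgeR). Without PD-L1 dish 3 it passed at -0.50 (adjusted p = 0.00189), and the offset added to that fit gave -0.27 (adjusted p = 0.0249). JUNB exons overlap those of HOOK2, a gene on the opposite strand with 181 to 228 counts in PD-L1 dishes and 213 to 267 in Vector dishes, so unstranded reads there may be lost or shared. JUND (ENSG00000130522), the member with the highest GC content, was at 88.6, 99.9 and 127.7 CPM in PD-L1 dishes and 143.9, 98.7 and 118.5 CPM in Vector dishes, with overlapping groups. Its log2 fold change was -0.19 ± 0.15 (SE, adjusted p = 0.479 in edgeR) and -0.06 (adjusted p = 0.638) with the GC and length offset.

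The JUN genes together showed no separation of the groups. Their sum was 194, 213 and 244 CPM per kilobase in PD-L1 dishes, against 254, 207 and 236 in Vector dishes. JUN itself held 64.9 to 68.9% of that sum in PD-L1 dishes and 61.1 to 66.5% in Vector dishes. JUND held 24.5 to 28.04% in PD-L1 dishes and 25.6 to 30.4% in Vector dishes. JUNB held 6.28 to 7.08% in PD-L1 dishes and 7.50 to 8.48% in Vector dishes, without overlap. By level per length, JUN ranked above JUND in every dish, and JUND above every FOS gene.

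**Figure D2:**
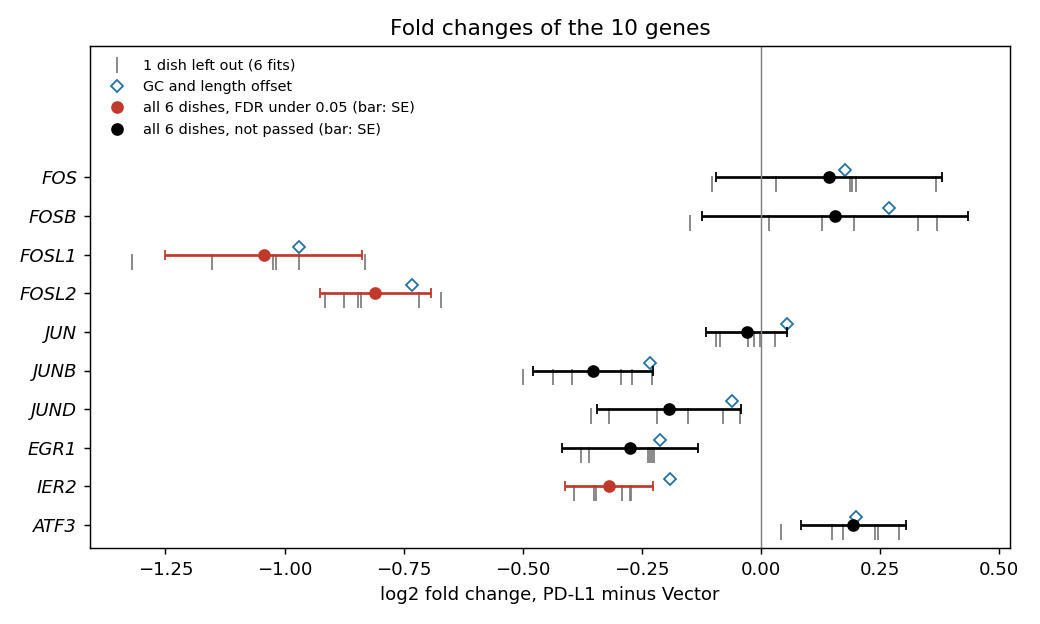
Log2 fold change, PD-L1 minus Vector, of the 10 genes from all 6 dishes (points, bars show the SE; red, FDR under 0.05), from the 6 fits that leave out 1 dish (ticks) and with the GC and length offset (diamonds). FOSL1 and FOSL2 lie between -1.32 and -0.67 in all of these fits, whereas JUN lies near 0 and changes sign between them.

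The zinc finger factor EGR1 and the nuclear protein IER2, both targets of serum response factor, were measured at low to moderate levels. EGR1 (ENSG00000120738) had 129, 103 and 139 counts in PD-L1 dishes and 186, 142 and 164 counts in Vector dishes. That is 6.29, 6.35 and 7.44 CPM in PD-L1 dishes, against 8.56, 6.94 and 8.83 CPM in Vector dishes, with an overlap of 1 dish. Its log2 fold change was -0.28 ± 0.14 (SE, adjusted p = 0.264 in edgeR), and no alternative setting called it.

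IER2 (ENSG00000160888) was at 25.7, 25.1 and 29.3 CPM in PD-L1 dishes, against 35.4, 32.1 and 32.4 CPM in Vector dishes. Every PD-L1 dish lay below every Vector dish, and PD-L1 dish 3 came nearest to the Vector range. The log2 fold change was -0.32 ± 0.09 (SE, adjusted p = 0.0464 in edgeR, exact permutation p = 0.1). This call was close to the threshold. It ended in 13 of 20 alternative settings, among them the GC and length offset (-0.19, adjusted p = 0.0842) and the fits without PD-L1 dish 1 (0.187), PD-L1 dish 2 (0.187), Vector dish 1 (0.210), Vector dish 2 (0.0772) or Vector dish 3 (0.0855). AC011446.2, an antisense gene whose exons overlap those of IER2, had 0 counts in every dish.

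ATF3 (ENSG00000162772, chromosome 1) was at 62.4, 67.7 and 86.3 CPM in PD-L1 dishes, against 59.3, 61.4 and 68.6 CPM in Vector dishes. PD-L1 dish 3 was above all other dishes, and the remaining values overlapped. The log2 fold change was 0.19 ± 0.11 (SE, adjusted p = 0.311 in edgeR), and 0.04 (adjusted p = 0.750) without PD-L1 dish 3. ATF3 was the member with the lowest GC content.

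Within the PD-L1 group the genes shared their highest dish. All 10 were highest in PD-L1 dish 3, which was the highest PD-L1 dish for 41.8% of tested genes and for 66.2% of those with a GC content over 55%. Their median level relative to the Vector mean was -0.35, -0.33 and 0.0013 on the log2 scale in PD-L1 dishes 1 to 3, and 0.10, -0.19 and -0.01 in Vector dishes 1 to 3. For all tested genes with a GC content over 55% the same medians were -0.17, -0.11 and 0.02 in PD-L1 dishes, and 0.07, -0.05 and -0.02 in Vector dishes. The bin of 60 to 65% GC content holds FOSL1, IER2 and JUNB. Its median log2 fold change over 1519 genes was -0.12, and 14.2% of them were lower. FOSL1 and FOSL2 retained their calls with the offset, and IER2 did not (-0.19, adjusted p = 0.0842 in edgeR).

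**Figure D3:**
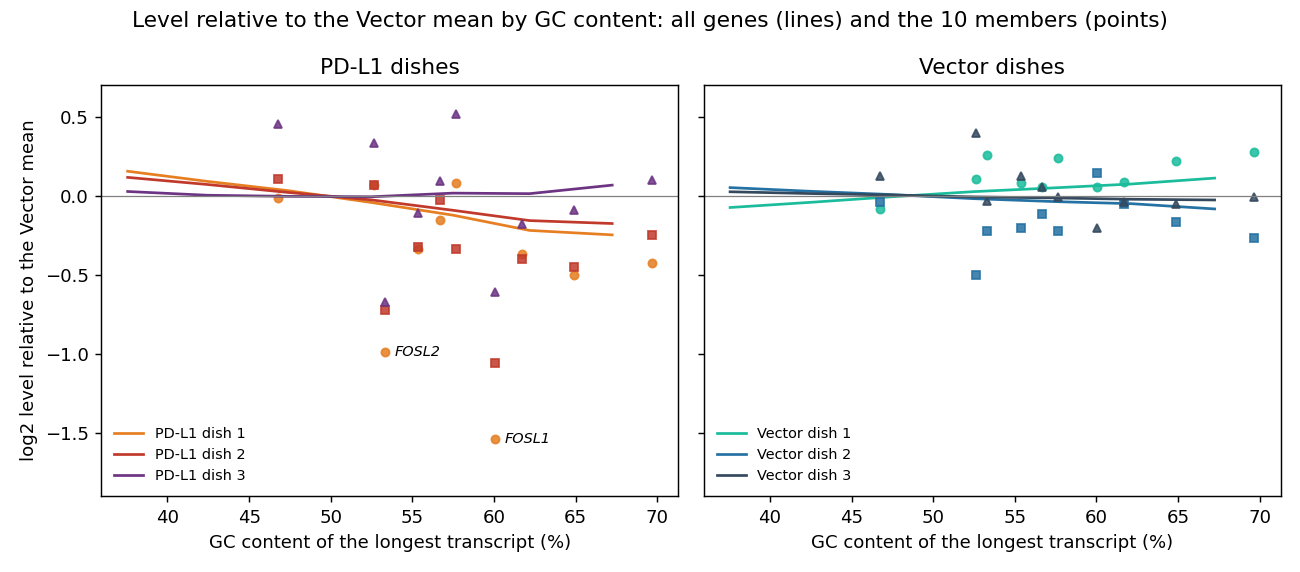
Log2 level relative to the Vector mean against the GC content of the longest transcript, for PD-L1 dishes (left) and Vector dishes (right). Lines are medians of all tested genes with a mean of at least 1 CPM in bins of GC content, and points are the 10 genes, with FOSL1 and FOSL2 named beside their value in PD-L1 dish 1. The lines of PD-L1 dishes 1 and 2 fall with GC content and that of dish 3 does not, and FOSL1 and FOSL2 lie below the lines in all 3 PD-L1 dishes.

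In the wider leucine zipper family, which holds further partners of AP-1 proteins, 1 gene passed the test. Of 23 further basic leucine zipper genes 22 were tested, 1 was lower and 0 were higher (7.20% and 1.55% of all tested genes), with a median log2 fold change of -0.01. The gene that fell was NFE2L1, a regulator of proteasome genes, at 201.5 ± 7.19 CPM in PD-L1 dishes and 244.8 ± 17.1 CPM in Vector dishes (log2 fold change -0.28 ± 0.08, adjusted p = 0.0338 in edgeR). The next smallest adjusted p belonged to CREB3 (-0.26, 0.106), CEBPB (-0.26, 0.333), CREB5 (0.13, 0.420), CREB1 (0.13, 0.420) and MAF (-0.14, 0.465). The count was 3 lower without PD-L1 dish 3 (13.8% of all genes). It was 0 without PD-L1 dish 1 (595 of all 16094 tested genes lower) or PD-L1 dish 2 (676 of 16171). It was also 0 without Vector dish 1 (510 of 16150) or Vector dish 3 (856 of 16246).

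Among 41 other immediate early genes, 38 were tested, 4 fell and 1 rose, where 7.20% of all tested genes were lower and 1.55% higher. The kinase PLK2 was at 37.6 ± 0.57 CPM in PD-L1 dishes and 57.5 ± 2.93 CPM in Vector dishes, and the matricellular CCN1 at 26.4 ± 1.95 CPM in PD-L1 dishes and 39.8 ± 0.96 CPM in Vector dishes. Their log2 fold changes were -0.61 ± 0.08 (adjusted p = 4.12e-04) and -0.59 ± 0.09 (adjusted p = 9.33e-04 in edgeR). IER5L was 1.82-fold lower and the RNA-binding ZFP36L1 1.38-fold lower. BTG2, an antiproliferative gene also induced by p53, rose by 0.56 ± 0.09 on the log2 scale (adjusted p = 0.00155). SGK1, the gene next in order of adjusted p, was at -0.40 (adjusted p = 0.0549). The list median was -0.08. Without PD-L1 dish 3 the count was 12 lower and 1 higher, where 13.8% of all genes were lower and 7.81% higher.

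Regulators of immediate early genes were examined as a list of 21 genes. It held serum response factor, its ETS and MRTF partners, and the EGR1 corepressors NAB1 and NAB2. It also held MYOCD, FHL2, CREB1 and kinases of the MAP kinase pathways. Of 20 tested, 1 was lower and 0 were higher, beside 7.20% lower and 1.55% higher over all tested genes, with a median log2 fold change of 0.03. The gene that fell was FHL2, a LIM-domain cofactor of serum response factor and AP-1, at 59.3 ± 7.76 CPM in PD-L1 dishes and 88.9 ± 7.21 CPM in Vector dishes (log2 fold change -0.59 ± 0.10, adjusted p = 0.00236 in edgeR). MRTFA, the actin-regulated coactivator, was at -0.27 ± 0.08 (adjusted p = 0.0567), ELK3 at -0.20 (adjusted p = 0.173), RPS6KA1 at -0.23 (adjusted p = 0.185), MAPK9 at 0.15 (adjusted p = 0.235) and ELK4 at 0.19 (adjusted p = 0.263). Without PD-L1 dish 3 the count was 4 lower and 2 higher (13.8% lower and 7.81% higher over all genes). Without Vector dish 2 it was 2 lower, where 1039 of all 16106 tested genes were lower.

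Genes known from other systems to be regulated by AP-1 were also examined. Of 32 listed genes 27 were tested, 17 fell and 0 rose, a share of 63.0% beside 7.20% of all tested genes, with a median log2 fold change of -0.65. The list was compiled from general knowledge with earlier results of these dishes in view, and many of its genes also belong to matrix and adhesion programmes, so its direction is a description. PLAU, the protease urokinase, was at 86.6 ± 2.14 CPM in PD-L1 dishes and 189.7 ± 4.47 CPM in Vector dishes (SD, n = 3 each). Its log2 fold change was -1.13 ± 0.07. The urokinase receptor PLAUR fell by 1.01 ± 0.14 on the log2 scale. Adjusted p in edgeR was 1.15e-06 for PLAU and 8.68e-04 for PLAUR.

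The other targets that fell encode proteins of several kinds. The gelatinase MMP2 was 2.34-fold lower, the matrix glycoprotein TNC 2.25-fold, the hyaluronan receptor CD44 2.00-fold, the growth factor TGFB1 1.97-fold and the integrin chain ITGA5 1.86-fold. The G1 cyclin CCND1 was 1.75-fold lower, the metallothionein MT2A 1.74-fold, the lamin LMNA 1.73-fold, the intermediate filament VIM 1.62-fold, the quinone reductase NQO1 1.55-fold, and the phosphoprotein SPP1 1.54-fold. The chemokine CXCL8 fell by 0.59 on the log2 scale. The cytoskeletal linker EZR and the connexin GJA1 were lower by 0.28 and 0.29 on the log2 scale. Of the 10 tested targets that did not pass, HBEGF (0.11) and HMOX1 (0.07) had positive log2 fold changes. The others were at -0.02 (CCL2), -0.17 (KRT18), -0.26 (VEGFA), -0.29 (TIMP1), -0.30 (LIF), -0.34 (FTH1), -0.65 (MMP13) and -1.02 (MMP3). MMP1, the collagenase gene that is a textbook AP-1 target, was near the detection limit. It averaged 0.296 CPM in PD-L1 dishes and 0.374 CPM in Vector dishes and was not tested. IL6, MMP9, MMP10 and SPRR1B were not tested either. IL6 averaged 0.509 CPM in PD-L1 dishes and 0.228 CPM in Vector dishes. MMP9 averaged 0.246 and 0.450 CPM in PD-L1 and Vector dishes, and MMP10 0.292 and 0.403 CPM. SPRR1B had 0 counts in every dish. The number of targets that fell was 10 without PD-L1 dish 2 (4.18% of all genes were lower) and 20 without PD-L1 dish 3 (13.8%).

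**Figure D4:**
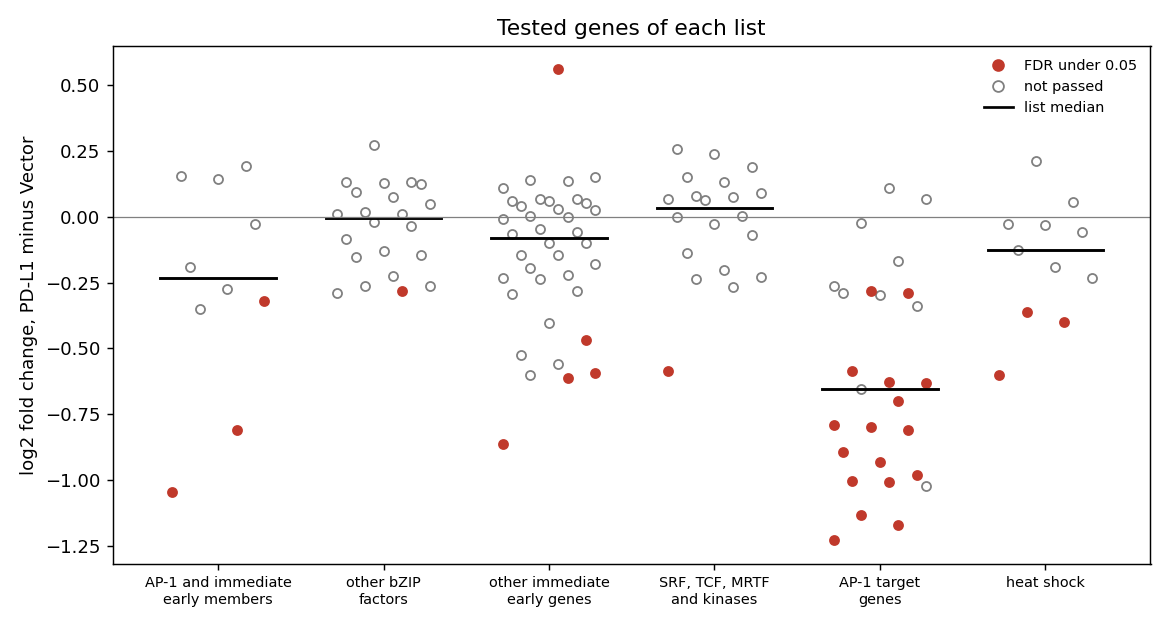
Log2 fold change, PD-L1 minus Vector, of every tested gene in the 10-gene group, 4 related lists and the heat shock list (points; red, FDR under 0.05) with each list's median (line). Points below 0 are lower in PD-L1 dishes. In the AP-1 target list 17 of 27 genes are red, and in the 10-gene group 3 of 10 are. The target list was compiled with earlier results of these dishes in view, so its share is a description.

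Heat shock genes and markers of other cell types were measured beside these results. Of 11 heat shock genes 3 fell and 0 rose, beside 7.20% lower and 1.55% higher over all tested genes, with a median of -0.13. HSPB1 was 1.52-fold lower, BAG3 1.32-fold and DNAJB1 1.29-fold, while HSPA8 (-0.19), HSPE1 (0.21) and HSP90AA1 (-0.13) did not pass. The count was 1 without PD-L1 dish 1, where 595 of all 16094 tested genes were lower. It was also 1 without Vector dish 1, where 510 of 16150 were. Of 9 astrocyte markers 6 were tested and 3 were lower, with a summed level of 636.9 to 660.3 CPM in PD-L1 dishes and 633.6 to 653.6 CPM in Vector dishes, most of it GLUL. GFAP, the defining astrocyte filament gene, averaged 1.70 CPM in PD-L1 dishes and 3.18 CPM in Vector dishes. Fibroblast and pericyte markers summed to 313.5 to 389.2 CPM in PD-L1 dishes and 665.5 to 1010 CPM in Vector dishes, with 3 of 6 lower, and most of the sum was COL1A1. Of its other genes, DCN averaged 0.111 CPM in PD-L1 dishes and 1.09 CPM in Vector dishes, and PDGFRB 2.64 CPM in PD-L1 dishes and 6.93 CPM in Vector dishes. LUM (1.24 CPM in PD-L1 dishes, 1.53 in Vector dishes), ACTA2 (4.71 in PD-L1 dishes, 3.70 in Vector dishes) and RGS5 (3.06 in PD-L1 dishes, 2.78 in Vector dishes) did not pass. Epithelial markers summed to 56.2 to 92.4 CPM in PD-L1 dishes and 146.5 to 200.3 CPM in Vector dishes, with 1 of 5 tested lower (KRT14), and EPCAM averaged 0.349 CPM in PD-L1 dishes and 0.354 CPM in Vector dishes. Endothelial markers (2 of 3 tested lower) summed to at most 3.96 CPM in PD-L1 dishes and 5.98 CPM in Vector dishes. Microglial markers (1 of 2 tested lower) reached 1.81 CPM in PD-L1 dishes and 3.22 CPM in Vector dishes. AIF1, which was lower, had 4, 1 and 0 counts in PD-L1 dishes and 14, 18 and 12 in Vector dishes. CSF1R, which did not pass, had 18, 8 and 17 counts in PD-L1 dishes and 46, 26 and 26 in Vector dishes. PTPRC, ITGAM, CX3CR1 and CD68 were not tested. PTPRC had 9, 9 and 5 counts in PD-L1 dishes and 8, 5 and 11 in Vector dishes. ITGAM had at most 5 counts in PD-L1 dishes and 4 in Vector dishes, and CX3CR1 at most 3 and 1. CD68 had 1 count in PD-L1 dish 1 and 0 in all other dishes. Neuronal markers (0 of 5 tested changed) summed to at most 14.9 CPM in PD-L1 dishes and 16.0 CPM in Vector dishes. Oligodendrocyte markers (1 of 2 tested lower) summed to at most 15.6 CPM in PD-L1 dishes and 18.4 CPM in Vector dishes. The part of these genes in the results above was not tested.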

How the data were processed

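Poly(A) RNA of 6 dishes was sequenced. The deposited counts are whole reads per Ensembl gene and dish; CASAVA 1.8, STAR 2.5.1b, HTSeq 0.6.0 and the build hg19 are listed per the submitters' processing notes, with no strand setting given. The deposited normalized signal is each count divided by 1 size factor per dish, as a comparison of the authors' tables showed; it served only as an alternative. Of 57773 IDs, 51996 were named from a symbol table and 342 from GENCODE 29.

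Counts were tested with edgeR 4.0.16 (R 4.3.3) by the quasi-likelihood test after filterByExpr and TMM scaling, PD-L1 against Vector, with Benjamini-Hochberg adjustment over 15818 genes and a threshold of 0.05. The code was tested on simulated data. Alternatives were other scalings, DESeq2 1.42.0, limma 3.58.1, other filters, a replicate block, an offset for GC content and length (splines with 5 degrees of freedom, known for 97.6% of tested genes), a threshold of 0.01 and leaving out each dish. The offset without PD-L1 dish 3 was added after seeing the data.

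The genes and lists were chosen with earlier results of these data known. The text names the 10 genes, CD274 and the 5 profiles nearest to FOS and FOSL1. From each list it names the 6 smallest adjusted p and all that passed. It also names the AP-1 targets that did not pass or were not tested. Of the marker lists, every microglial marker and every fibroblast and pericyte marker is named. Of the astrocyte and epithelial lists, markers that carry a sum or define a cell type are named instead, chosen after their values were seen. No endothelial, neuronal or oligodendrocyte marker is named, although endothelial and oligodendrocyte markers were among those that passed. CREB1, GJA1, HBEGF and SRF stand in 2 lists each. The values of 1 gene in the AP-1 target list are not reported here.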

Additional observations from a re-analysis of the deposited data

How the results depend on the processing

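FOSL2 passed in all 20 alternatives and FOSL1 in 18, the exceptions being the fit without PD-L1 dish 2 and the 0.01 threshold (-1.04, adjusted p = 0.0166 in edgeR). IER2 did not pass with upper-quartile scaling (-0.29), library size (-0.27), a mean of at least 5 CPM (-0.31), the GC and length offset (-0.19), that offset without PD-L1 dish 3 (-0.18) or the 0.01 threshold (-0.32). JUNB passed with no filter on low counts (-0.37) and with the offset without PD-L1 dish 3 (-0.27). JUN was positive with upper-quartile scaling (0.0030), library size (0.0226), the offset (0.0547), the offset with the replicate block (0.0557) and the offset without PD-L1 dish 3 (0.0435). Equal dish numbers did not pair the dishes (correlations of deviations -0.21, -0.05 and -0.19, and no dish correlated best with its own number). With the replicate block 1447 genes changed, 2 of the 10 members and 0 further leucine zipper genes did, and IER2 did not pass (-0.32). The offset added to that block gave 1359 genes and again 0 leucine zipper genes, and IER2 did not pass (-0.19). At the 0.01 threshold 530 genes, 1 member, 0 leucine zipper genes and 1 heat shock gene passed. The offset without PD-L1 dish 3 gave 3371 genes, 3 leucine zipper genes, 12 other immediate early genes, 6 upstream regulators and 6 heat shock genes. With no filter 1904 of 33317 genes changed, with 3 leucine zipper genes, 9 immediate early genes and 2 upstream regulators among them. The offset alone gave 2066 of 15818 genes, 2 leucine zipper genes and 3 upstream regulators, where the main fit gave 1384 genes. Upper-quartile scaling gave 1394 genes and library-size scaling 1333 genes, both with 0 leucine zipper genes. Leaving out 1 dish gave 545 to 3512 genes, 1 to 4 members, 0 to 3 leucine zipper genes, 4 to 13 immediate early genes, 1 to 6 upstream regulators, 10 to 20 AP-1 targets and 1 to 4 heat shock genes. The log2 fold changes then ranged from -0.10 to 0.37 for FOS, -0.15 to 0.37 for FOSB, -1.32 to -0.83 for FOSL1, -0.92 to -0.67 for FOSL2, -0.0943 to 0.0307 for JUN, -0.50 to -0.23 for JUNB and -0.39 to -0.27 for IER2. The cause of these shifts was not tested. FOS and FOSB rest on 20 to 74 counts per dish.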

Other observations

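The genes whose centred log2 profile over the 6 dishes lay closest to that of FOSL1, among 11387 genes with a mean of at least 5 CPM, were KCNMA1, KRT81, MGLL, IL13RA2 and EPHB1, at root mean square distances of 0.0840 to 0.125, against a median of 0.615. KCNMA1, a potassium channel gene, was at 66.5, 80.2 and 124.3 CPM in PD-L1 dishes and 207.7, 200.5 and 169.4 CPM in Vector dishes. KRT81, a hair keratin gene, was at 435.2, 522.0 and 855.6 CPM in PD-L1 dishes and 1334, 1326 and 1057 CPM in Vector dishes, and its reads may be shared with near-identical keratin genes. The profiles closest to that of FOS were EMX1, UNCX, AATK, CXCR4 and PPFIA4, at distances of 0.102 to 0.136 against a median of 0.317. EMX1, a homeobox gene, was at 8.34, 8.996 and 10.5 CPM in PD-L1 dishes and 10.4, 6.31 and 10.4 CPM in Vector dishes. All genes of a dish share its library and depth, so these distances are descriptions.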
